A study of Mus musculus with 3 samples.

Results

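The MAP kinase cascade genes were taken as all protein-coding genes of the GENCODE mouse M21 annotation whose symbol is Mapk, Map2k, Map3k or Map4k followed by a number. The rule gave 43 genes of 21853, and it used no measured value. They comprised 13 MAP kinases (MAPK), 7 MAP kinase kinases (MAP2K), 18 MAP kinase kinase kinases (MAP3K) and 5 MAP kinase kinase kinase kinases (MAP4K). Where Argonaute 2 (Ago2) was bound on these transcripts was examined in N2A, a mouse neuroblastoma cell line, under basal conditions. In HITS-CLIP, ultraviolet light fixes Ago2 to the RNA it touches, the complex is immunoprecipitated with an anti-Ago2 antibody, and the bound fragments are sequenced and called as peaks. All 3 libraries, replicates 1 to 3, belonged to 1 group of untreated N2A cells, crosslinked at 400 and later at 200 mJ per square cm. There was no input, no mock precipitation and no second condition, nothing in the labels places the replicates in separate cultures, and N2A is a single established line, so the spread given below is that between these 3 samples and may be technical.

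In a MAP kinase cascade each kinase phosphorylates and activates the next, from MAP4K and MAP3K through MAP2K to MAPK, and the MAPK then acts on transcription factors, other kinases and cytoskeletal proteins. The ERK branch carries growth factor signals and drives proliferation and neurite outgrowth in neuronal cells, whereas the JNK and p38 branches respond mainly to stress and cytokines. Ago2 is the protein that carries a miRNA to its target mRNA, most often through pairing of the miRNA seed with the 3′UTR.

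The deposited table held 711377, 498071 and 829936 peaks in replicates 1, 2 and 3, with median widths of 83, 84 and 85 nt. Read counts behind the peaks are unknown, and transcript levels were not measured in this assay, so the absence of a peak does not tell that Ago2 was absent from a kinase mRNA. Markers of the cell type were checked by the same measure. A 3′UTR peak in each of the 3 libraries was found for 9 of 17 sympathoadrenal and neuronal markers, including Hand2 and Elavl4 (52.9%, against 23.9% of all genes with a 3′UTR, and 4.31 of 17 from 3′UTR length), whereas Th and Nefl had no 3′UTR peak in any library. Astrocyte, muscle and hepatocyte markers were called in 0 of 4 each, where 1.44, 0.571 and 0.329 would be from length. Myeloid markers were called in 1 of 4 (Ptprc, 0.582 from length) and oligodendrocyte markers in 2 of 4 (including Mbp, 1.69 from length). With 4 genes per list, these counts do not separate one cell type from another.

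A gene was counted as called when a peak on its own strand overlapped its 3′UTR by at least 1 nt in each of the 3 libraries. For a gene with several coding transcripts the longest 3′UTR was used. All 43 cascade genes had an annotated 3′UTR, and 20 of them (46.5%) were called, against 23.9% of the 21028 protein-coding genes with a 3′UTR. Cascade genes had somewhat longer 3′UTRs, with a median of 1263 nt against 960.5 nt over all genes, and length moved with the call. Called members had a median 3′UTR of 2068 nt and the 23 others 964 nt. Given the called share of all genes in the same class of 3′UTR length (20 classes), 12.5 of the 43 would be called, which is a description and not a test. Within each length class, the rank of a member by number of peaks, averaged over libraries, had a median percentile of 66.8, against 44.6 over all genes, and 33 of the 43 members (76.7%) lay above the 50th percentile of their class, against 40.3% of all genes.

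**Figure D1:**
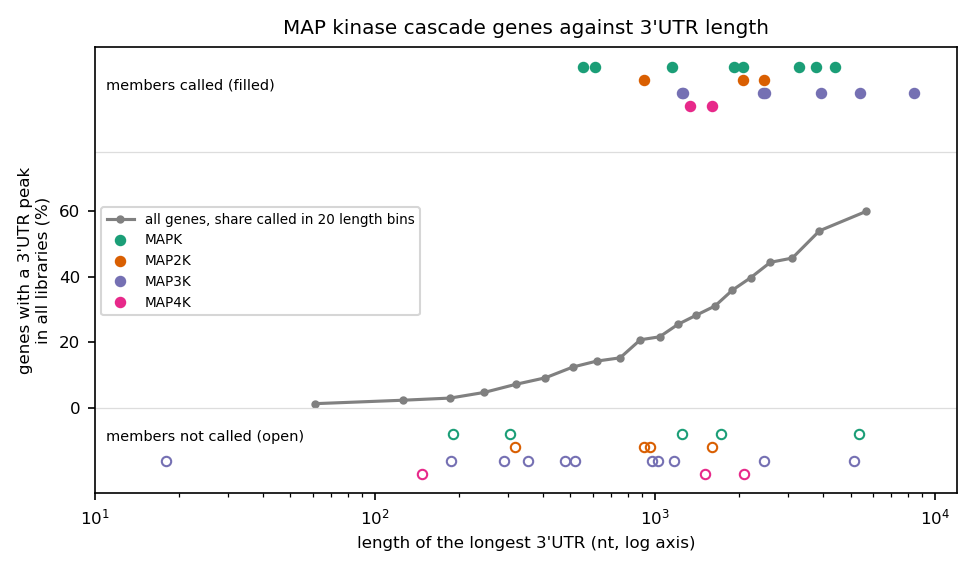
Share of genes called in the 3′UTR in all 3 libraries (vertical axis, percent) against 3′UTR length (horizontal axis, nt, log scale). The line follows all genes in 20 length classes, from 1.33% in the shortest to 59.9% in the longest, and the points place the 43 cascade genes by length alone, coloured by tier, with the called ones filled in the rows at the top and the others open in the rows at the bottom.

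The 3 libraries did not contribute evenly. A 3′UTR peak was seen for 28, 29 and 35 members in replicates 1, 2 and 3, against 34.8%, 44.7% and 48.4% of all genes. The member 3′UTRs held 71, 299 and 281 peaks in total on the sense strand, and 14, 15 and 23 on the opposite strand. Replicate 1, although not the library with the fewest peaks genome-wide, therefore had the fewest in these 3′UTRs, and it was the lowest of the 3 libraries for 15 of the 20 called members. Of the members missing from a single library, 6 lacked a peak in replicate 1, 4 in replicate 2 and 2 in replicate 3, while 8 members had a peak in 1 library and 3 members in none. The peaks were nevertheless partly the same. Between replicates 2 and 3, 74.2% and 73% of member 3′UTR peaks overlapped one in the other library, and 67.6% and 73.2% of the replicate 1 peaks were met in replicates 2 and 3. In the other direction, 23.1% of the replicate 2 peaks and 28.8% of the replicate 3 peaks were met in replicate 1. Over all genes the shares were 68.8% and 67.1% between replicates 2 and 3, 61% and 61.2% for replicate 1 peaks, and 27.8% and 27% for replicate 2 and 3 peaks in replicate 1, so the members followed the libraries.

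A recurrent region was defined as a run of at least 8 nt of 3′UTR covered by same-strand peaks of all 3 libraries. Such regions were found in 14 members (32.6%), against 14.3% of all genes with a 3′UTR. From 3′UTR length alone 7.48 members would have one. The 14 members held 39 regions with a median length of 78 nt (8 to 126 nt), compared with 69 nt over the 7837 regions of all genes. The number depends strongly on replicate 1, since without that library 139 regions in 23 members were found, and with equal numbers of peaks drawn per library 18 regions in 10 members remained. The shortest, of 8 nt, lay in Map2k1, and the longest run just short of the limit, 6 nt, lay in Map3k1. None of the 39 regions overlapped an exon of another gene on the same strand. The positions spread over the 3′UTR, with 12 regions in the stretch nearest the stop codon when the 3′UTR was cut into 3 equal parts, 10 in the middle and 17 at the far end. The shares at the near and far ends were 30.8% and 43.6% in members, and 38.9% and 30.2% over the regions of all genes.

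**Figure D2:**
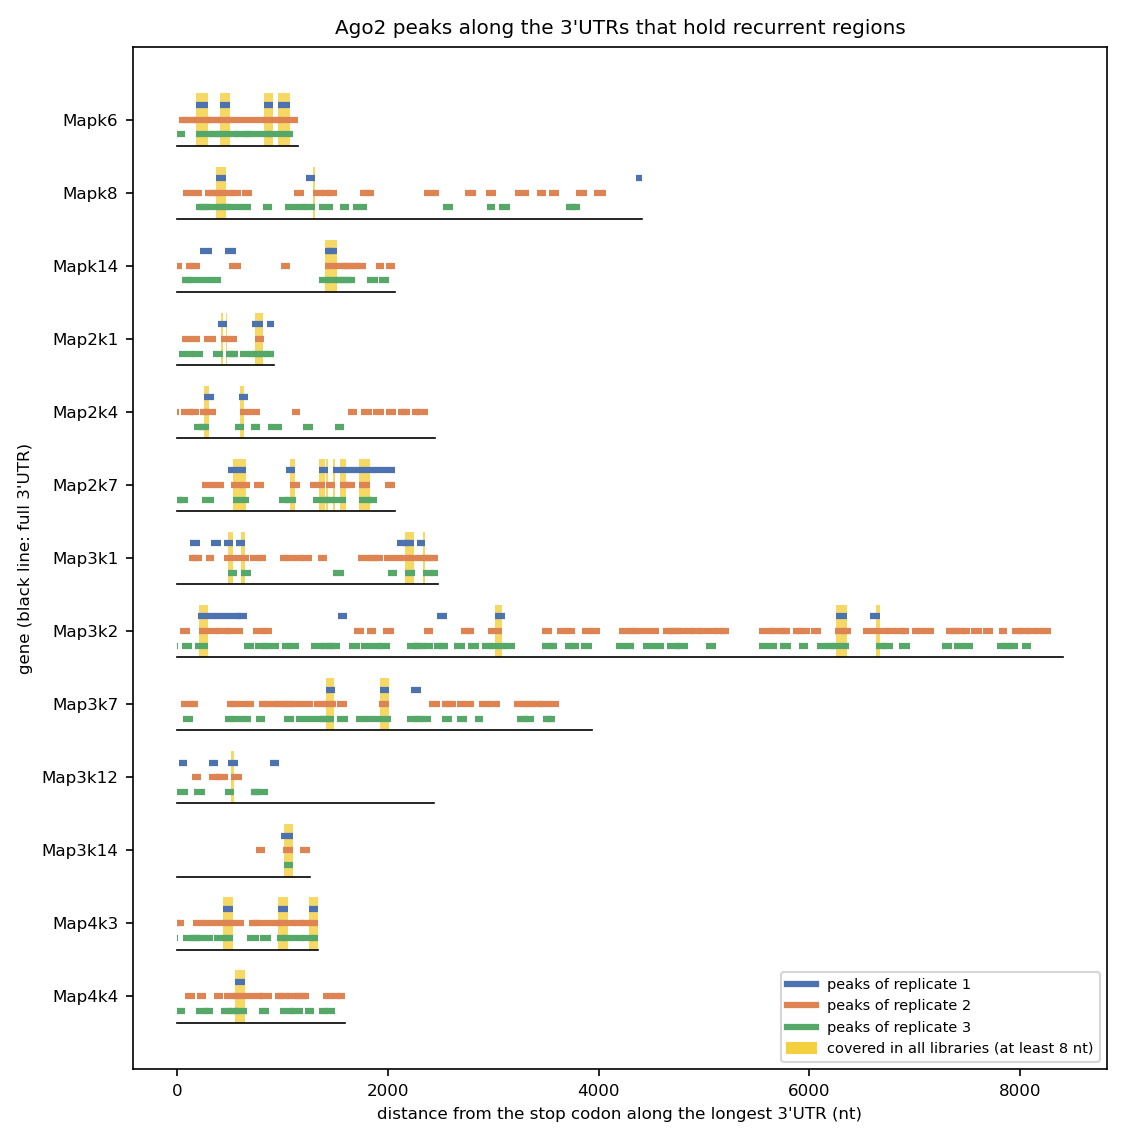
Peaks along the 3′UTRs of cascade genes with a recurrent region, 1 row of marks per library, with the distance from the stop codon in nt on the horizontal axis. Shaded spans are the recurrent regions, from 1 in Mapk14, Map3k12, Map3k14 and Map4k4 to 7 in Map2k7, and replicate 1 has the fewest peaks in most rows.

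To show what lies under these regions, 3′UTR sequence around matches to the seeds of listed miRNA families is printed for 8 sites, 5 of them 8mer matches, together with 7mer matches that bring in the MAP2K tier and Mapk14. Each site is written 5′ to 3′ on the transcript strand from GRCm38. The capitals mark the match to miRNA positions 2 to 8 and, in an 8mer, the A that follows it.
Map3k14, miR-155-5p: ggactcattgtAGCATTAAgttcactgtga
Map3k14, miR-27: gcattaagttcACTGTGAAtcatttgttgg
Map4k3, let-7: taatttagttaCTACCTCAtacaaacatta
Map4k4, miR-23: aatatttataaAATGTGAAagacacagtta
Mapk6, miR-19: ctggcatgtcgTTTGCACAcacacacatac
Mapk14, miR-125: aaacatgaatcCTCAGGGgtgaagaactg
Mapk14, miR-17 family: ctgaattttgaGCACTTTgtgctatataa
Map2k7, miR-125: ctctctttgatCTCAGGGggtccttttgg

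The positions of these matches in GRCm38, without the following A, are chr11:103219963-103219969 and chr11:103219951-103219957 (minus strand) in Map3k14, chr17:80580814-80580820 (minus strand) in Map4k3, chr1:40025310-40025316 (plus strand) in Map4k4, chr9:75387851-75387857 (minus strand) in Mapk6, chr17:28747800-28747806 and chr17:28747842-28747848 (plus strand) in Mapk14, and chr8:4246469-4246475 (plus strand) in Map2k7. All of them are 3′UTR exon sequence.

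The mature miRNAs whose seeds these sites match are given below from RefSeq (GRCm38.p6), 5′ to 3′, with the seed, bases 2 to 8, in capitals. The 7 seeds are all different, so each line stands for its own family.
miR-155-5p: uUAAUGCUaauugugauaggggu
miR-27b-3p: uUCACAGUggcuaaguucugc
let-7a-5p: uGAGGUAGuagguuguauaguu
miR-23a-3p: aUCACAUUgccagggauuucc
miR-19b-3p: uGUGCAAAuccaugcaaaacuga
miR-125b-5p: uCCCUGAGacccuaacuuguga
miR-17-5p: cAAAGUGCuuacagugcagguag

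Among the MAPK tier, 8 of 13 genes were called (61.5%, against 23.9% of all genes and 4.08 from 3′UTR length), and 4 had recurrent regions (2.47 from length). Mapk3 (ERK1), an end kinase of the growth factor branch, was called with 1, 2 and 3 peaks in replicates 1, 2 and 3 in a 3′UTR of 612 nt, and its peaks did not share 8 nt across the libraries.

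Mapk6 (ERK3), an atypical MAPK, had the largest share of its 3′UTR in recurrent regions. It had 4, 7 and 8 peaks, and its 4 recurrent regions summed to 414 nt, which is 36% of its 3′UTR of 1150 nt. Peaks covered 36.2%, 98.3% and 87.2% of that 3′UTR in replicates 1, 2 and 3, so that nearly all that was covered in replicate 1 was covered in the others. The miR-19 8mer shown above lay in the region nearest the stop codon.

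Of the JNK genes, the stress-activated end kinases, Mapk8 (JNK1) had 3, 22 and 19 peaks and 2 recurrent regions. Mapk9 (JNK2) had 2, 12 and 8 peaks without a recurrent region. Mapk10 (JNK3), the JNK known for its neuronal expression, had 1, 0 and 2 peaks in a 3′UTR of 5368 nt. Its intronic peaks numbered 103, 30 and 67, so peak rows were present elsewhere on this gene. Over the whole gene there were 108, 30 and 72 same-strand peaks, against 44, 27 and 28 on the opposite strand. In replicate 2 the strands were thus nearly level. With all its 3′UTR exons joined (7940 nt) it had 5, 0 and 5 peaks, and it was not called under either model. Its longest 3′UTR held 24 matches to listed seeds, none of them under a peak.

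The p38 genes, which respond to stress and cytokines, also differed from each other. Mapk14 (p38α), the most broadly expressed of them, had 4, 13 and 11 peaks and 1 recurrent region of 118 nt (chr17:28747741-28747858, plus strand), which carries the miR-125 and miR-17 matches printed above. Mapk12 (p38γ) was called with 1, 1 and 2 peaks. Mapk11 (p38β) had 1, 0 and 4 peaks, and Mapk13 (p38δ) had a single peak in replicate 1, a row of more than 1000 nt that covered the entire 3′UTR.

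Mapk4 (ERK4) was called with 1, 5 and 2 peaks. Mapk7 (ERK5) had 0, 5 and 3 peaks in a short 3′UTR of 305 nt, which is 0, 16.4 and 9.84 per kb, so it was dense in replicates 2 and 3 and not called for want of a peak in replicate 1. Mapk15 (ERK7) had no 3′UTR peak in any library, and its 3′UTR of 190 nt belongs to a length class in which 3.04% of all genes were called.

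**Figure D3:**
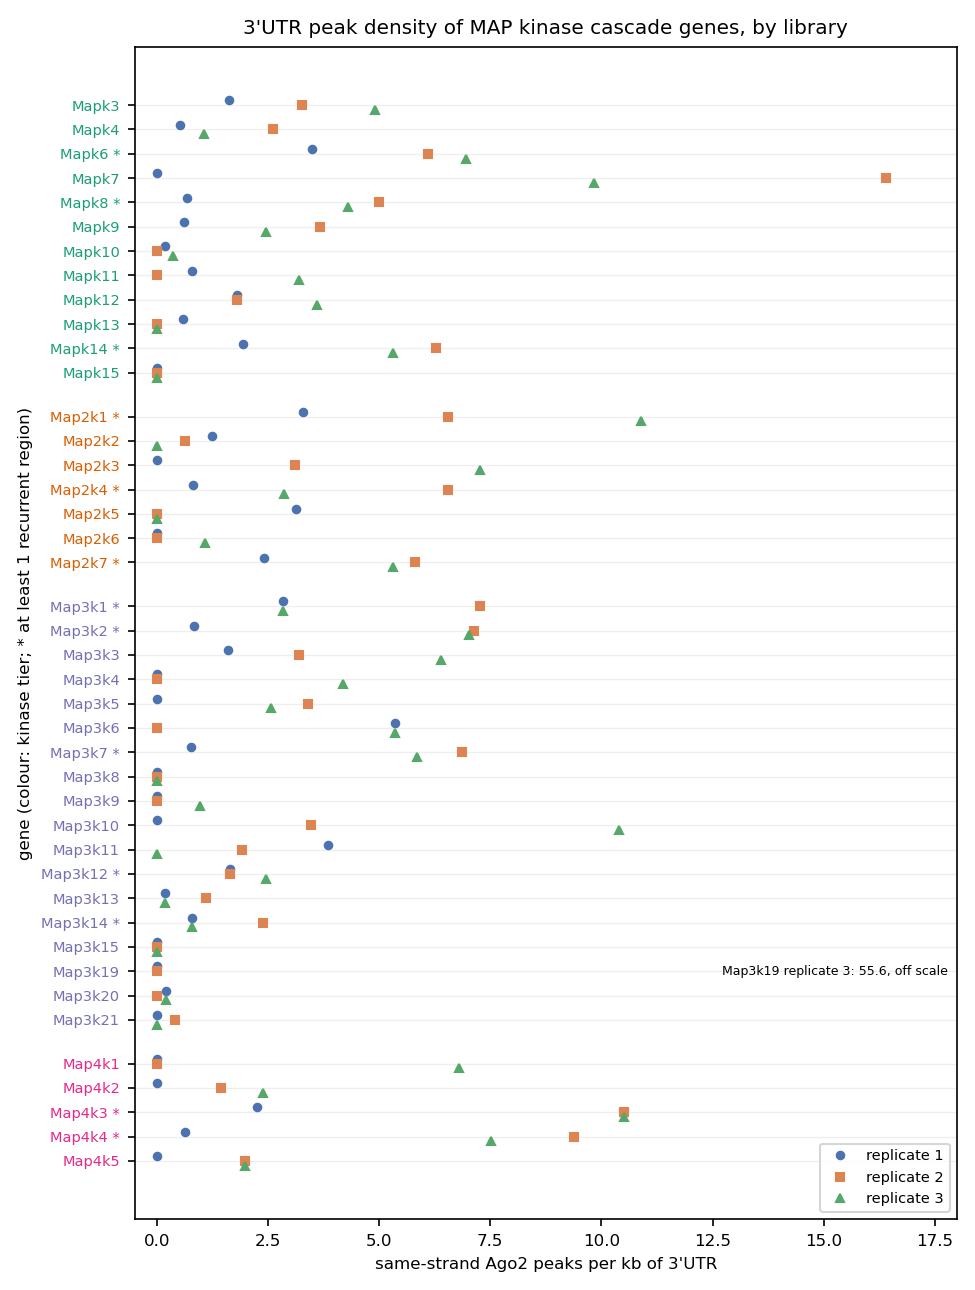
Same-strand 3′UTR peaks per kb of 3′UTR (horizontal axis) for the cascade genes, grouped by tier, with 1 point per library. Replicate 1 lies left of the other libraries for most called genes, the largest value on the scale is that of Mapk7 in replicate 2 (16.4), and the replicate 3 value of Map3k19 (55.6, a single peak over 18 nt of 3′UTR) lies off the scale.

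In the MAP2K tier, 3 of 7 genes were called (42.9%, against 23.9% of all genes and 1.86 from 3′UTR length), and all 3 had recurrent regions (1.12 from length). Both kinases of JNK were among them. Map2k7 (MKK7), the kinase specific to JNK, had 5, 12 and 11 peaks and 7 recurrent regions, the highest number in the cascade. These summed to 440 nt, 21.3% of its 3′UTR of 2068 nt, but 3 of the 7 lay in replicate 1 under 1 peak row longer than 1000 nt. The first region of Map2k7, 531 to 656 nt past the stop codon, holds the miR-125 match shown above. Map2k4 (MKK4), which activates both JNK and p38, had 2, 16 and 7 peaks and 2 recurrent regions of 41 and 37 nt.

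Of the kinases of ERK, Map2k1 (MEK1) had 3, 6 and 10 peaks in 915 nt of 3′UTR, with 3 recurrent regions from 417 nt past the stop codon onwards, whereas Map2k2 (MEK2) had 2, 1 and 0 in 1607 nt. That difference depends on the 3′UTR model. With the 3′UTR exons of all its coding transcripts joined (2645 nt), Map2k2 had 3, 3 and 5 peaks, was called, and had 1 recurrent region of 73 nt. It was the only member whose call changed with this model. Map2k3 (MKK3) and Map2k6 (MKK6), the kinases dedicated to p38, were not called (0.425 of 2 from length). Map2k3 had 0, 3 and 7 peaks and Map2k6 had 0, 0 and 1. Map2k5 (MEK5), the kinase of ERK5, had 1, 0 and 0 peaks.

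In the MAP3K tier, 7 of 18 genes were called (38.9%, against 23.9% of all genes and 5.31 from 3′UTR length), and 5 had recurrent regions (3.13 from length). Map3k2 (MEKK2) had the most peaks of all members, 7, 60 and 59 in a 3′UTR of 8403 nt, and 4 recurrent regions. Per kb this was 0.833, 7.14 and 7.02 peaks, so its replicates 2 and 3 were nearly alike and replicate 1 was lower. Map3k1 (MEKK1) had 7, 18 and 7 peaks with 4 recurrent regions, so replicate 1 was level with replicate 3 in this gene. Map3k3 (MEKK3) was called with 2, 4 and 8 peaks and no recurrent region, and Map3k4 (MEKK4) had 0, 0 and 2.

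Map3k7 (TAK1), which relays TGF-β and cytokine receptor signals, had 3, 27 and 23 peaks and 2 recurrent regions of 82 and 86 nt. Neither region held a match to a listed seed. Map3k14 (NIK), a kinase of the non-canonical NF-κB pathway, had 1, 3 and 1 peaks, and these met in 1 region of 86 nt (chr11:103219923-103220008, minus strand). That region held 3 of the 7 8mers found under recurrent regions, for miR-155-5p, miR-128-3p and miR-27, the latter pair overlapping in sequence. The call of Map3k14 rests on 1 peak each in replicates 1 and 3.

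Map3k12 (DLK) and Map3k13 (LZK), axonal stress kinases, were both called (1.04 of 2 from length). Map3k12 had 4, 4 and 6 peaks and 1 recurrent region of 29 nt, but Pcbp2 overlaps it on the other strand, and the opposite strand of the Map3k12 3′UTR held 2, 4 and 7 peaks. Map3k13 had 1, 6 and 1 peaks in 5391 nt. It lay at the percentile of 38.4 in its length class, and its call was lost with peaks of 86 to 200 nt alone and with equal draws of peaks per library. The ASK genes Map3k5, Map3k6 and Map3k15, kinases of the oxidative stress response, were not called (0.357 of 3 from length). Map3k5 (ASK1) had 0, 4 and 3 peaks, Map3k6 (ASK2) 1, 0 and 1, and Map3k15 (ASK3) none on its own strand, where the opposite strand, which carries Pdha1, had 2, 4 and 4.

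None of the 4 mixed-lineage kinases of the MLK family proper was called, where 0.858 of 4 would be from 3′UTR length, with 0, 0 and 1 peaks for Map3k9, 0, 1 and 3 for Map3k10, 2, 1 and 0 for Map3k11, and 0, 1 and 0 for Map3k21. Map3k8 (TPL2), which activates MEK in macrophages, had no 3′UTR peak in any library. Map3k20 (ZAK) had 1, 0 and 1 peaks in 5136 nt. The single peak of Map3k19, in replicate 3, covered an annotated 3′UTR of 18 nt and says little about that gene.

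In the MAP4K tier, 2 of 5 genes were called (40%, against 23.9% of all genes and 1.3 from 3′UTR length), each with recurrent regions (0.764 genes from length). Map4k3 (GLK) had 3, 14 and 14 peaks in 1336 nt and 3 recurrent regions of 88, 91 and 81 nt. At 2.25, 10.5 and 10.5 peaks per kb, it had the highest average percentile within its length class of all 43 members (97.2). The let-7 8mer printed above lay in its second region. Map4k4 (HGK) had 1, 15 and 12 peaks and 1 region of 93 nt (chr1:40025267-40025359, plus strand), in which the miR-23 8mer lay under the central part of a peak in every library. This region rests on 1 peak in replicate 1 and was lost when equal numbers of peaks were drawn per library, as were the regions of Map2k4, Map3k12 and Map3k14. Map4k5 had 0, 3 and 3 peaks, Map4k2 0, 3 and 5, and the blood-cell kinase Map4k1 (HPK1) 0, 0 and 1.

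Set side by side, the tiers had 3′UTR peak densities of 2.7 ± 1.52 (MAPK), 3.14 ± 1.5 (MAP2K), 2.43 ± 1.45 (MAP3K) and 3.69 ± 2.68 (MAP4K) peaks per kb (mean ± SD, n = 3 libraries). The value for all 43 members was 2.7 ± 1.58, and that for all genes was 1.43 ± 0.725 peaks per kb. The density of the members was above that of all genes in each library, at 0.884 against 0.593, 3.72 against 1.85 and 3.5 against 1.84, a mean difference of 1.27 ± 0.857 peaks per kb (exact two-sided sign-flip permutation test, n = 3 libraries, p = 0.25, the smallest it can give). The spread of every tier is mostly the low value of replicate 1, and the tiers overlap.

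Within a library the order was steadier. The MAP2K tier exceeded the MAP3K tier in each library, by 0.712 ± 0.0809 peaks per kb on average (exact two-sided sign-flip permutation test over 3 libraries, p = 0.25, the smallest it can give, adjusted p = 0.5 over 6 pairs of tiers). The MAP4K tier lay above the other tiers in replicates 2 and 3 and below them in replicate 1 (exact sign-flip permutation p = 0.5 for each of its pairs, adjusted p = 0.5). Map4k3 and Map4k4 held 29 of its 35 peaks in replicate 2 and 26 of 35 in replicate 3, and by median percentile within the length class the tier was the lowest (59.4, against 79.1 for MAPK, 67.7 for MAP2K and 63.8 for MAP3K). With 3 libraries no pair of tiers could pass a threshold. Recurrent regions numbered 0.414, 1.3, 0.318 and 0.599 per kb of 3′UTR from MAPK to MAP4K, against 0.252 over all genes, and 7 of the 12 MAP2K regions were those of Map2k7.

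**Figure D4:**
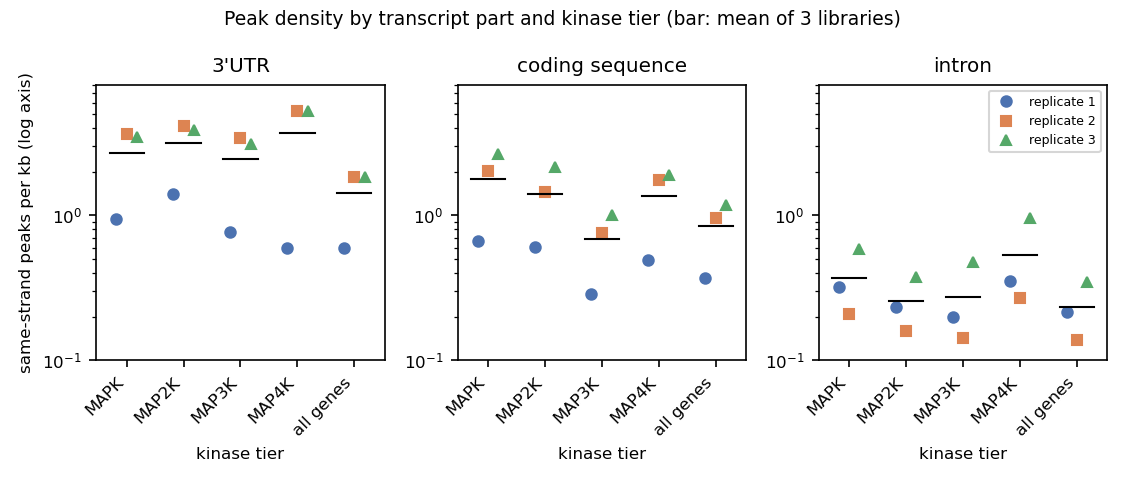
Same-strand peaks per kb of 3′UTR, coding sequence and intron (vertical axis, log scale) for the 4 kinase tiers and all genes, with 1 point per library and a bar at their mean. In the 3′UTR the tiers lie between 0.599 and 5.24 peaks per kb and in introns between 0.142 and 0.963.

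Outside the 3′UTR, each peak was assigned by its midpoint to a transcript part. The members had 831, 926 and 1969 same-strand peaks in replicates 1, 2 and 3, of which 72, 298 and 281 had their midpoint in a 3′UTR. These were 8.66% (Wilson 95% interval 6.94 to 10.8), 32.2% (29.3 to 35.3) and 14.3% (12.8 to 15.9), where the intervals cover counting error only. The share therefore differed between the libraries by more than counting error. Over all genes it was 7.52%, 25.2% and 13.2%, so the members were higher in each library, by 1.14, 7 and 1.1 percentage points (exact two-sided sign-flip permutation p = 0.25, the smallest possible). The share of all genes lay outside the members' interval in replicate 2 and inside it in replicates 1 and 3. Most of the other peaks were intronic, 711, 497 and 1527.

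Strand was used as the internal background. Same-strand peaks outnumbered those on the opposite strand 2.04, 4.15 and 5.26 times over the whole of the member genes, and 6.55, 19.9 and 14.8 times by midpoint in the 3′UTR (exact two-sided sign-flip permutation p = 0.25, the smallest possible). In introns the ratios were 1.91, 2.48 and 4.45. Over all genes the ratios were 1.84, 2.87 and 3.81 in whole genes, 3.77, 16.3 and 11.6 in the 3′UTR and 1.73, 1.85 and 3.18 in introns, rising and falling with the libraries as in the members. The whole-gene ratio of the members also depended on peak width, since with peaks of 86 to 200 nt alone it was 6.85, 15.3 and 18. On the opposite strand, 3 members (6.98%) passed the same rule in the 3′UTR, against 2.63% of all genes. These were Map3k12 and Map3k15, which overlap Pcbp2 and Pdha1 there, and Map3k2, with 1, 2 and 1 peaks against 7, 60 and 59 on its own strand.

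Coding sequence carried a peak midpoint in every library for 18 members (41.9%), against 18.6% of protein-coding genes, and 11 of these were also called in the 3′UTR. The other 7 were Mapk7, Map2k3, Map3k4, Map3k5, Map4k1, Map4k2 and Map4k5, all with a 3′UTR peak in 1 library or in 2. Mapk6 had 6, 15 and 12 coding peaks and Map4k4 3, 13 and 16, the highest sums over the libraries. Per kb of coding sequence the members had 1.05 ± 0.58 peaks and all genes 0.839 ± 0.422 (mean ± SD, n = 3 libraries). As a share of same-strand peaks, coding sequence was lower in members in each library. It held 4.81%, 12.4% and 7.57%, against 5.41%, 15.1% and 9.66% over all genes. Introns carried a peak in every library for 37 members (86%), against 57.7% of genes with an intron, and Map4k4 had 66, 45 and 194 intronic peaks. Per kb of intron the members had 0.329 ± 0.196 peaks and all genes 0.233 ± 0.105. Neither the coding nor the intron call was set against the length of that part. No member was without a same-strand peak in some part of the gene. Among the peaks in introns were those over miRNA hairpins, Mir744 in Map2k4 with 1, 2 and 0 peaks and Mir6989 in Map4k2 with 0, 1 and 1.

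The seed matches were taken from 40 listed miRNA families, of which 37 had a mature sequence in the RefSeq table. The families of miR-124-3p, miR-143-3p and miR-145a-5p were not searched. The motif of a family is the reverse complement of positions 2 to 8 of its mature sequence on the transcript strand, such as CTACCTC for let-7, AGCATTA for miR-155-5p and CTCAGGG for miR-125. Matches numbered 366 in the 3′UTRs of 37 members. Of these, 21 fell in recurrent regions, at 19 distinct positions in 11 members, and 7 were 8mers.

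The 21 matches came from 13 families. The families of miR-128-3p and miR-17 had 3 each, those of miR-125, miR-155-5p, miR-27 and miR-9-5p had 2 each, and let-7, miR-103-3p, miR-142a-5p, miR-15/16, miR-182-5p, miR-19 and miR-23 had 1 each. Over all genes, matches of miR-17 and miR-27 were denser inside recurrent regions than outside (ratios of 1.73 and 1.26), as were those of miR-155-5p (1.32), whereas those of miR-125, miR-128-3p and miR-9-5p were less dense inside (0.384, 0.823 and 0.888). Both miR-125 matches were in the JNK and p38 branches, in Map2k7 and Mapk14, and both miR-9-5p matches in Map2k7 and Map3k1. The miR-155-5p matches were in Map3k14 and Map3k2. Recurrent regions of members held no match for 24 families, among them miR-21a-5p, the miRNA the study follows, whose motif ATAAGCT occurred in the 3′UTRs of 7 members. Of the 39 regions, 22 held no listed match.

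Matches under the central part of a peak in all 3 libraries were fewer. The central part is what remains after removal of 30 nt on each side. Peaks were read as padded by that length, which the sources used here do not state. There were 6 of these, those of miR-128-3p in Mapk6, miR-103-3p and miR-15/16 at overlapping positions in Mapk8, miR-125 in Mapk14, miR-155-5p in Map3k14 and miR-23 in Map4k4. The windows of the last 3 are printed above.

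Per length, the recurrent regions of the 14 members held 8.06 listed matches per kb and the rest of the same 3′UTRs 4.68, a ratio of 1.72. Over all genes the values were 4.23 and 3.82 per kb, a ratio of 1.11. The member ratio rests on 21 matches and on replicate 1, since without that library it was 1.07. By single library, the density under peaks was taken over the 3′UTRs of all 43 members, so differences between genes enter it. It was 1.3, 1.29 and 0.811 times the density outside peaks, so that replicate 3 went the other way. The regions of members were also richer in A and T, with 62.5% inside and 58.5% outside, and the part of this in the ratio was not tested. Over all genes these shares were 64.2% and 57.5%. A seed match under a peak is a description of the sequence, and does not show which miRNA was bound.

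The kinases were also set beside 59 other genes of the same pathway, chosen by role. Of these, 39 were called (66.1%, background 23.9%), where 20.2 would be called from 3′UTR length. Upstream of the cascade, 6 of 8 RAS, RAF and exchange factor genes were called (3.26 from length). Nras had 9, 36 and 33 peaks and 9 recurrent regions and Braf had 9, 34 and 45 and 6 regions, so both were among the genes with the most peaks in this list.

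Transcription factor substrates of the MAPK were called at the highest share, in 10 of 12 cases (4.29 from length), such as Creb1 with 11, 40 and 30 peaks and Fos with 3, 4 and 7, while Jun had 0, 5 and 6. The phosphatases that inactivate MAPK were called in 8 of 10 (2.62 from length), with 8, 4 and 7 peaks and 5 recurrent regions for Dusp6, the ERK-directed phosphatase. Scaffolds and adaptors were called in 7 of 12 (4.53 from length), MAPK-activated kinases in 5 of 11 (3.27 from length), and kinases of the MAP3K and MAP4K levels with other names in 3 of 6 (2.24 from length), led by Taok1 with 15, 65 and 49 peaks. The lists were put together by role, and no difference between them was tested.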

How the data were processed

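Per the labels, 3 Ago2 HITS-CLIP libraries of N2A cells formed 1 group. The submitters' processing notes name FastQC, cutadapt, STAR and mm10. The peak caller and its threshold are not given in the sources used here. The authors deposited 1 table of peaks called per sample, with a score of 54.6 to 60 that has no stated unit. It was 60 for at least 98.9% of peaks and ranked nothing. No peak end lay past the ends of the 21 primary nuclear chromosomes of GRCm38. Starts went down to -30, so starts were read as counted from 0 and peaks as padded by 30 nt on each side.

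Members, lists and tests were chosen with earlier results of these data known. Transcript parts came from GENCODE M21, with the stop codon counted as coding and midpoints assigned in the order 3′UTR, coding sequence, 5′UTR, intron and non-coding exon. Members with a recurrent region were named with values, followed by those outside the pattern of their tier. A few genes are counted in the totals but are not reported here by name. Sites to print were taken with 8mers first, none from chromosome 18. Differences over libraries were tested by exact sign-flip permutation (scipy 1.17.1), and p-values were adjusted by Benjamini-Hochberg. Alternatives were the number of libraries required, overlap, score, peak width, trimming, equal draws, the 3′UTR model, site type, length classes and single libraries left out. The overlap code was tested on simulated peaks. Python 3.11.15, pandas 2.3.3 and pysam 0.24.0 were used.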

Additional observations from a re-analysis of the deposited data

How the results depend on the processing

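Of 157 values under alternatives for 16 results, 133 stayed within the limits set, 1.5 times for a count and 1 SD for other values, 24 moved and 0 reversed. With a peak in at least 2 libraries, 32 members were called (MAP2K 5, MAP3K 12, MAP4K 4) and 26 had regions, 154 in all with 83 seed matches and a density ratio of 1.05. Peaks of 86 to 200 nt left 19 regions, 13 matches and a density ratio of 2.24, and raised the mean same-strand to opposite-strand ratio of member genes from 3.82 to 13.4. Trimming by 30 nt left 18 regions, 6 matches and a ratio of 2.47. Equal draws of 498071 peaks left 18 regions and 8 matches, and 8mers alone numbered 7.

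Leaving out 1 library gave 22 to 26 called members, 16 to 23 members with regions, 45 to 139 regions, 26 to 72 matches, density ratios of 1.07 to 1.47 and 2 to 4 called MAP4K genes. Each upper count, and the lowest ratio, came without replicate 1. Of the 20 called members, 17 were called under all 11 settings, the exceptions being Map3k13, Map3k14 and Mapk4. Of the 14 with regions, 8 kept one: Map2k7, Map3k1, Map3k2, Map3k7, Map4k3, Mapk14, Mapk6 and Mapk8. Leaving out peaks over 1000 nt, an alternative chosen after seeing the data, moved no result. The cause of these shifts beyond the fewer or more libraries and peaks entered was not tested. No paired analysis was possible because there is 1 group, so no replicate number is shared between groups, and differences between gene sets were instead taken within each library. Depth in reads is unknown, so no limit for absent peaks can be given.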
